A study of Oryza sativa with 6 samples.

Results

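The genes described here are 10 genes of starch synthesis in rice (Oryza sativa), chosen by their locus identifiers from the 30020 genes of the authors' table. All 10 were found, and each identifier had a single entry. AGPS2 and AGPL3 code for subunits of the enzyme that makes ADP-glucose. GBSSI, GBSSII, SSI, SSIIb, SSIIIa, BEI, BEIIa and BEIIb code for enzymes that make starch from it. RNA-seq libraries with poly(A) selection came from whole seedlings of 30 days, in 3 samples of oschz1 and 3 of wild-type. In its methods the study names the japonica cultivar Nipponbare for its RT-PCR tissues and gives no hour of harvest for the seedlings. The study's results name the mutant line as oschz1-1, a transgene-free allele with a CRISPR/Cas9 deletion. The deletion shifts the reading frame of OsChz1, a histone chaperone. By the study's methods, the RNA of a sample came from several seedlings pooled. Both genotypes grew in long days, with the 14 h light period kept at 30 °C and the 10 h night at 28 °C, for 10 days on MS medium of reduced strength and 20 days on full MS medium.

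The values are the authors' mean normalized read counts, averaged over all 6 libraries of both genotypes after division by the size factor of each library. No values of single libraries were used, so a level below describes oschz1 and wild-type seedlings together. A comparison of oschz1 with wild-type was not analysed here for these genes, and the spread between seedlings or libraries is not part of any interval below. The intervals cover counting error only, at 95%, from the fewest reads that each mean allows. Size factors, read from the smallest values of the table, ranged from 0.596 to 1.59, and the mean normalized counts of all genes summed to 23667139.

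Starch is made in plastids. ADP-glucose pyrophosphorylase, built of small and large subunits, makes the sugar donor ADP-glucose, and starch synthases add its glucose to growing chains. Granule-bound synthase makes the mostly unbranched amylose, soluble synthases extend the chains of amylopectin, and branching enzymes cut chains and rejoin them as side branches. In leaves, starch is stored by day and broken down at night, whereas in the grain it is kept as the reserve of the endosperm. Several steps have gene copies known in rice mainly from the endosperm and others known mainly from leaves.

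The 10 genes spanned mean normalized counts of 56.1 to 18371, with a median of 3572, against a median of 155 for all genes of the table. Among them, 7 lay within the highest 10% of all genes, which began at 1683 mean normalized counts, and 9 lay above the median gene. The 3 genes outside the highest 10% were GBSSI, BEIIb and SSIIIa. Counts of different genes were not divided by transcript length, for which no value was used here. They are therefore numbers of reads, and a long transcript yields more of them than a short one at the same abundance.

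**Figure D1:**
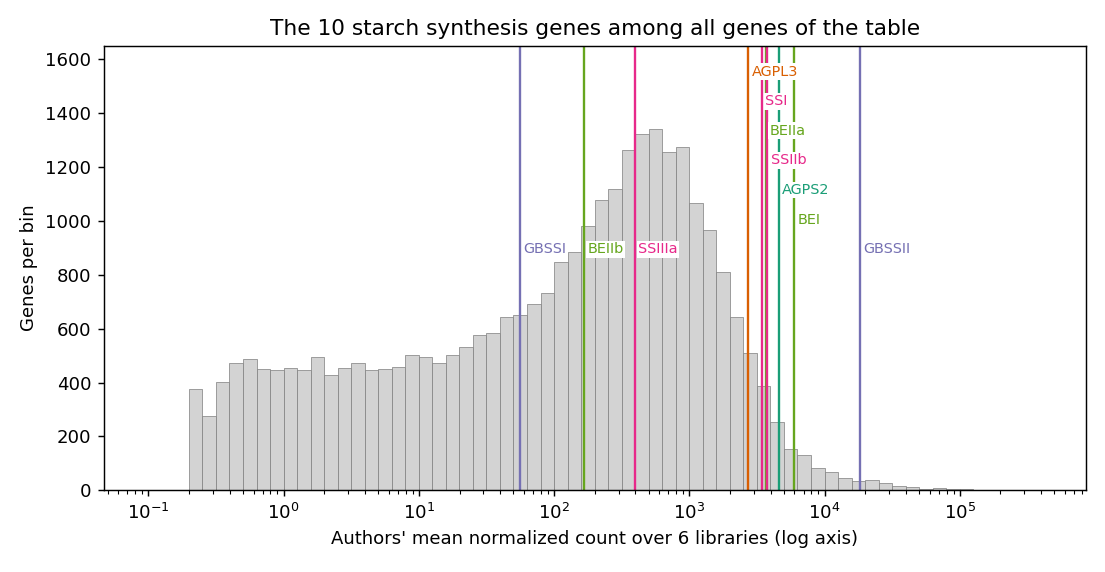
Histogram of the authors' mean normalized counts of all 30020 genes (x axis, log scale; y axis, genes per bin), with a coloured line for each of the 10 genes. GBSSI at 56.1 lies below the median of 155, BEIIb at 166.7 and SSIIIa at 395 lie above it, and the other 7 stand between 2737 and 18371.

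The granule-bound synthases were the highest and the lowest of the 10 genes in reads. GBSSII (LOC_Os07g22930, chromosome 7), the copy known from leaves and other vegetative organs, had a mean normalized count of 18371 (18230 to 18512), rank 121 of 30020 from the top. GBSSI (LOC_Os06g04200, chromosome 6), the Waxy gene that makes the amylose of the grain, had 56.1 (48.6 to 64.4), rank 18387, and was the only 1 of the 10 below the median gene. The mean of GBSSI stands for at least 200 reads over the 6 libraries, so the gene was detected. Reads of GBSSII outnumbered those of GBSSI by 328 to 1 (95% exact binomial interval 286 to 379), and GBSSII took 99.7% of the normalized reads of the pair (exact interval 99.6% to 99.7%).

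Branching enzymes showed a low member beside a pair of high ones. BEI (LOC_Os06g51084) had a mean normalized count of 5984 (5904 to 6064), rank 505. BEIIa (LOC_Os04g33460), the copy of the second type found in leaves and most other organs, had 3696 (3633 to 3759), rank 1000. BEIIb (LOC_Os02g32660), known mainly from the endosperm, had 166.7 (154 to 181), rank 14689, close to the median of all genes. Reads of BEI stood to those of BEIIa as 1.62 to 1 (1.58 to 1.65), with transcript length not taken into account. Reads of BEIIb were 0.0451 of those of BEIIa (0.0415 to 0.0490). Of the normalized reads of the 3 genes, 60.8% were of BEI, 37.5% of BEIIa and 1.69% of BEIIb.

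Of the soluble starch synthases, SSI and SSIIb were near each other and SSIIIa was far below. SSI (LOC_Os06g06560), which makes the shortest chains, had a mean normalized count of 3449 (3389 to 3511), rank 1114. SSIIb (LOC_Os02g51070), the type II copy known from leaves, had 3782 (3719 to 3847), rank 966, which is 1.10 times the reads of SSI (1.07 to 1.12). Counting error alone separates these values, but neither the spread between libraries nor transcript length was taken into account, so no order of SSI and SSIIb is given. SSIIIa (LOC_Os08g09230), a long-chain synthase known mainly from the endosperm, had 395 (374 to 416), rank 10499, or 0.114 of the reads of SSI (0.108 to 0.121).

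The subunit genes of ADP-glucose pyrophosphorylase were both high. AGPS2 (LOC_Os08g25734), a small-subunit gene whose transcripts code for a plastid form in leaves and a cytosolic form in the endosperm, had a mean normalized count of 4596 (4526 to 4667), rank 707. The count joins both forms, which the table does not separate. AGPL3 (LOC_Os03g52460), a large-subunit gene, had 2737 (2683 to 2792), rank 1569, the lowest of the 7 genes in the highest 10%. Its reads were 0.596 of those of AGPS2 (0.581 to 0.611).

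**Figure D2:**
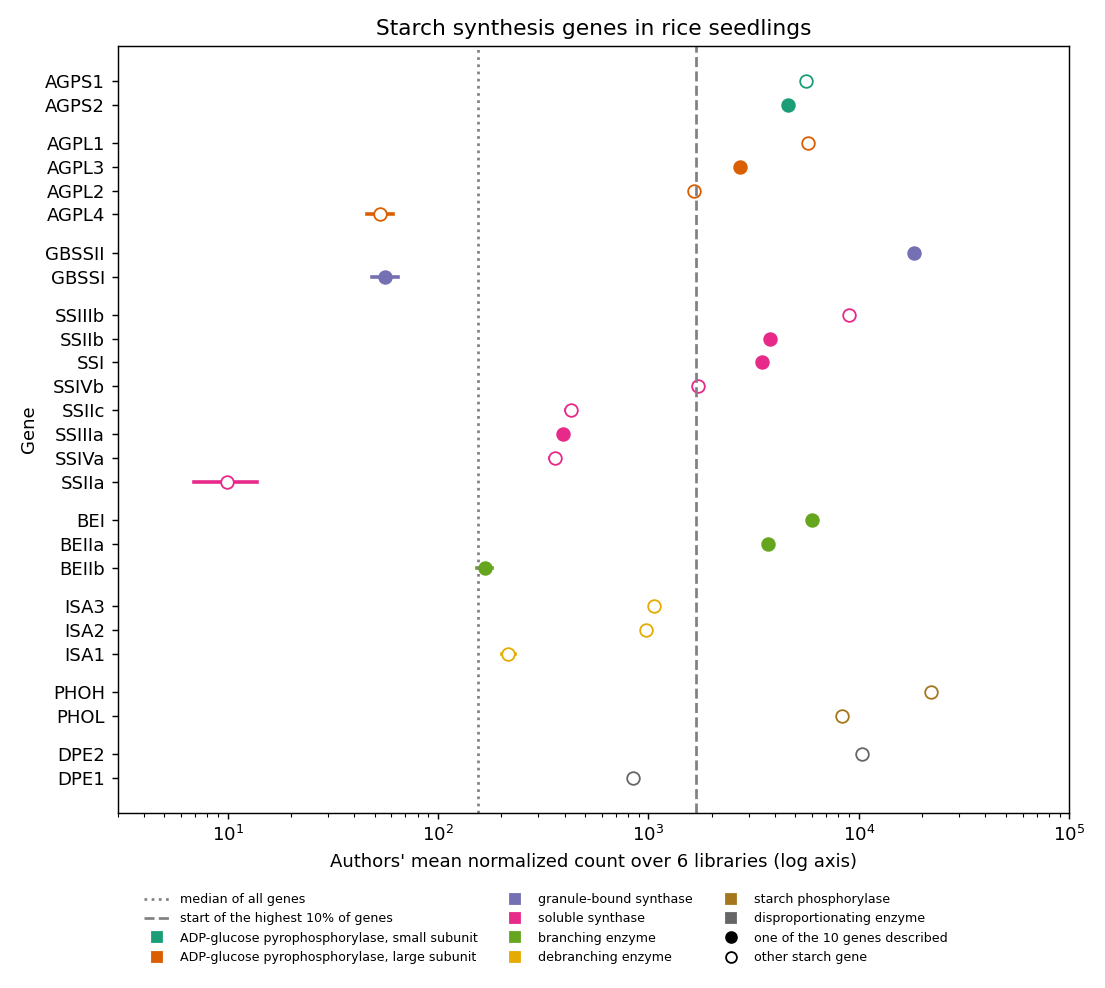
Mean normalized count of 26 starch genes (x axis, log scale), ordered by step, with filled points for the 10 genes and open points for other starch genes. Horizontal lines are 95% intervals for counting error, mostly narrower than the points. GBSSII at 18371 stands far right of GBSSI at 56.1, BEI at 5984 far right of BEIIb at 166.7, and SSI and SSIIb lie close together.

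A further 17 starch genes, listed from general knowledge, were read for context, and 16 of them are in the table. PUL (pullulanase, LOC_Os04g08270) has no entry there and was not analysed here. The 16 genes had mean normalized counts of 9.94 to 22039 with a median of 1357. Of these, 7 lay within the highest 10% of all genes and 14 above the median gene. They place the 10 genes within their steps.

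Among the soluble synthases, SSIIIb (LOC_Os04g53310), the type III copy known from leaves, had 8980 mean normalized counts, so that reads of SSIIIa were 0.0440 of those of SSIIIb (0.0417 to 0.0464). SSIIa (LOC_Os06g12450), the type II copy of the endosperm, had 9.94 (6.94 to 13.8), from at least 35 reads, and reads of SSIIb outnumbered them by 381 to 1 (271 to 536). SSIIc (LOC_Os10g30156) was at 429, SSIVa (LOC_Os01g52250) at 361 and SSIVb (LOC_Os05g45720) at 1730. Over all 8 soluble synthases, SSIIIb took 46.9% of the normalized reads, SSIIb 19.8%, SSI 18.0%, SSIVb 9.04%, SSIIIa 2.06% and SSIIa 0.0519%. In these pairs of types II and III, as in the granule-bound and type II branching pairs, the copy known from the endosperm had the fewer reads. That is not a rule for all genes known from the endosperm, since AGPL2 (below) stood at percentile 89.7 of all genes. The pairs with SSIIIb and SSIIa were chosen after their values were seen. Pairs of ADP-glucose pyrophosphorylase genes, added with them to the planned pairs, are not part of this pattern. Reads of AGPS2 were 0.823 of those of AGPS1 (0.806 to 0.840). Reads of AGPL3 were 0.475 of those of AGPL1 (0.464 to 0.487). Whether the pattern holds for these genes was not tested.

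For ADP-glucose pyrophosphorylase, the other small-subunit gene AGPS1 (LOC_Os09g12660) had 5585 mean normalized counts, so AGPS2 took 45.1% of the reads of the small subunit (44.6% to 45.7%). The large-subunit genes AGPL1 (LOC_Os05g50380), AGPL2 (LOC_Os01g44220) and AGPL4 (LOC_Os07g13980) had 5759, 1648 and 53.2, and AGPL3 took 26.8% of the reads of the large subunit (26.4% to 27.3%). AGPL2, known as the cytosolic large subunit of the endosperm, took 16.2% and stood at percentile 89.7 of all genes, so this gene of the endosperm was not low. Summed over genes, the small subunit had 10181 and the large subunit 10197 mean normalized counts. These are sums of reads not divided by transcript length, so they do not compare the amounts of the subunits.

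**Figure D3:**
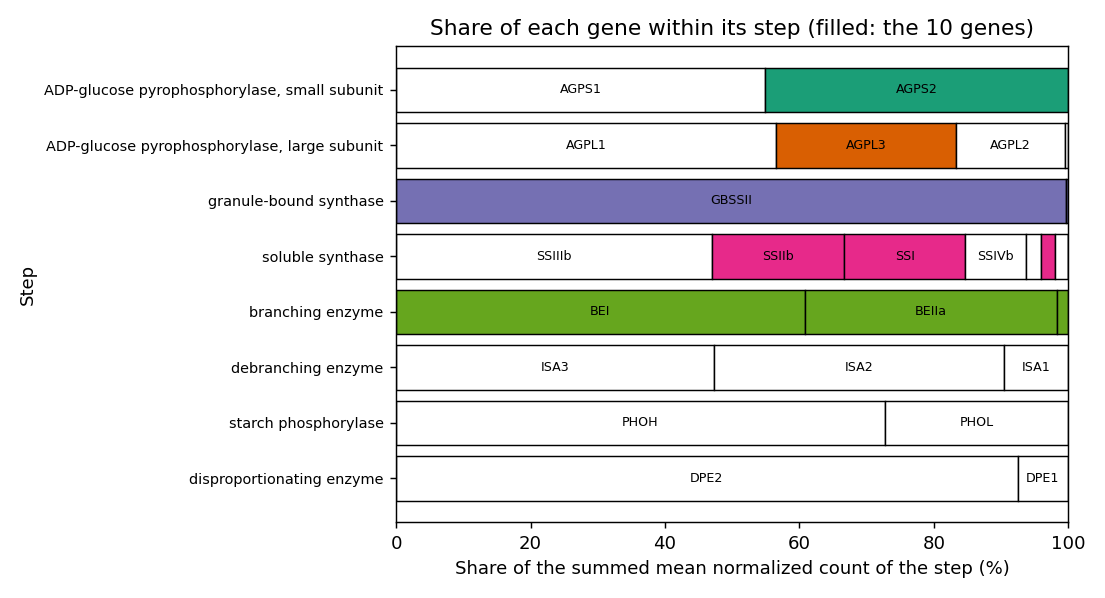
Share of each gene in the summed mean normalized count of its step (x axis, percent), with a bar per step, filled segments for the 10 genes and open segments for others, and names written where the share is above 5%. GBSSII fills 99.7% of the granule-bound bar, BEI and BEIIa together nearly all of the branching bar, and SSIIIb with 46.9% is the widest segment of the soluble synthases.

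The remaining genes code for debranching enzymes, phosphorylases and disproportionating enzymes. The debranching enzymes ISA1, ISA2 and ISA3 (isoamylases) had 216, 971 and 1066 mean normalized counts. ISA1, which trims amylopectin in the grain, was the lowest of the 3 and took 9.58% of their reads. The plastid phosphorylase PHOL had 8285 and the cytosolic phosphorylase PHOH 22039, while the disproportionating enzymes DPE1 of the plastid and DPE2 of the cytosol had 843 and 10352. PHOH and GBSSII, at ranks 102 and 121, had the most reads of the 26 starch genes.

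The labelled tissue was checked with markers. The leaf genes CAB1R (LOC_Os09g17740), RbcS4 (LOC_Os12g19470) and LHCB1.3 (LOC_Os01g52240), of light harvesting and carbon fixation, had 227551, 23023 and 11869 mean normalized counts, and CAB1R ranked 1 of 30020. Of the 4 storage protein genes of the endosperm, GluA1 had 3 reads over the 6 libraries and the globulin gene Glb1 had 2, GluA3 has no entry, and GluA2 (LOC_Os10g26060) had 161 mean normalized counts (149 to 175). RNA of the storage protein gene GluA2 was thus measured in these seedlings at a level near that of BEIIb. Whether RNA of the grain contributed to the reads of the endosperm genes was not tested. The control genes ACT1 (actin) and UBQ5 (ubiquitin, LOC_Os01g22490) had 2773 and 4497.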

How the data were processed

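Strand-specific libraries of 3 oschz1 and 3 wild-type seedling samples were, by the authors (study's methods), trimmed with cutadapt, aligned with HISAT2, kept where unique with SAMtools, counted with featureCounts and compared with DESeq2. The alignment used the Nipponbare genome MSU7. The strand setting of the counting was not given in the sources used here. The value used is a signal, the mean normalized count that the authors deposited. The other columns hold the authors' own comparison of the genotypes (log2 fold change, its SE, statistic and p-values). They were not used, and with 0 columns of single libraries no test between genotypes was made.

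The worth of 1 read in each of the 6 libraries was read from the smallest means. The lowest mean was taken as a pair of reads of the deepest library. The step was tested on simulated data from which genes with fewer reads than that were left out, so this assumption was not tested. Each of the 2243 genes with a mean below 0.7 then came out as whole reads (100%, tolerance 3e-08). Intervals of levels are exact Poisson and those of shares and ratios exact binomial (Clopper-Pearson), from the fewest reads a mean allows. PCR copies are not independent molecules.

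All 10 members and all listed genes are named. Members and lists were chosen with earlier results of these data known. Symbols were paired with loci from general knowledge. The reference gene table (assembly ASM3414082v1) lists 0 of the locus identifiers. Of 15 symbols looked up there, 14 stood on the chromosome of the locus and 1 (UBQ5) on another, and 5 of the 10 members were among those looked up. Chromosomes are read from the identifiers, and no coordinates are given. AGPS1 and AGPS2 and other paralogs are measured by reads that distinguish them. Python 3.11.15, pandas 2.3.3, NumPy 2.4.6, SciPy 1.17.1 and matplotlib 3.10.9 were used.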

Additional observations from a re-analysis of the deposited data

How the results depend on the processing

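When genes under a mean normalized count of 1 or 10 were left out, 27108 or 22504 genes were ranked, and then 7 of the 10 genes were within the highest 10%, and 8 in place of 9 lay above the median gene, BEIIb being below it. The percentile of all 10 was lower in both, by up to 6.58 and 20.5 points for GBSSI. Ratios per coding or transcript length were planned but not run, since no such length was used, so every ratio given is of reads. Other normalizations, other count filters and leaving out a replicate need values of single libraries and were not run. No paired analysis was possible because the table used holds no value of a single library.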
